A study of Mus musculus with 20 samples.

Results

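The keratin genes were taken as every symbol that consists of Krt followed by digits only, which gave 48 of the 24062 gene symbols in the count tables. Keratins with a letter after the digits, such as Krt6a and Krt6b, and the keratin-associated proteins stood outside this rule. The counts came from dermal lymphatic endothelial cells (LECs), sorted as CD31+podoplanin+ cells from the ear skin of wild type C57BL/6 mice (C57BL/6N in the study's methods) at postnatal day 56 that lived in 12 h of light and 12 h of dark. Cells were taken at zeitgeber times (ZT, hours after lights on) ZT1, ZT7, ZT13 and ZT19, with 5 libraries at each time point and 20 in all. Each library was a pool of 4 ears from 2 mice, male in the study's methods, and no group carried a treatment or an altered allele. The time points were compared to find transcripts of skin LECs that vary over the day.

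Keratins are the intermediate filament proteins of epithelial cells. A type I keratin pairs with a type II keratin to build the filament, and the pair changes with the layer and kind of epithelium: Krt5 with Krt14 in the basal layer of the epidermis, Krt1 or Krt2 with Krt10 in the layers above it, Krt8 with Krt18 in simple epithelia and Merkel cells, and further sets in the inner root sheath and the hair shaft. Desmosomes and hemidesmosomes anchor these filaments at the cell membrane. Endothelial cells rely mainly on another intermediate filament protein, vimentin (Vim), and the keratins of the epidermis and hair are not part of their usual program.

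In the GENCODE annotation of GRCm38 (mm10), 47 of the 48 symbols had a gene model, and Krt85 had none under that symbol. Of these, 25 lay on chromosome 11 between positions 99232761 and 100269871, the locus of the type I genes, and 22 lay on chromosome 15 between 101347444 and 102032027, the locus of the type II genes and of Krt18. Basal Krt14 occupied chr11:100203162-100207548, Krt15 chr11:100131758-100135928 and Krt5 chr15:101707070-101712898, all on the minus strand. Because keratins arose by duplication, the transcript of each member was searched for stretches of 100 bases that another gene's transcript holds exactly. Of the 47 transcripts 35 held none, and 6 held them over more than 10% of their windows, led by Krt81 (29.0%), Krt86 (24.6%), Krt16 (24.3%) and Krt34 (17.5%), so the counts of those genes are uncertain. Krt14 shared 2.88% of its windows with Krt16, and Krt5 shared 2.38% with Krt6a and a predicted gene, whereas Krt15, Krt79, Krt2 and Krt10 shared none. Another gene overlapped 9 members on the opposite strand, among them Krt5 and Krt10, and as the strand setting of the counting is not given in the sources used here, reads of such partners cannot be told apart.

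The depth was 4475111 to 42002363 counts on genes per library, and 12.7% to 81.6% of the reads placed on a gene or on no gene fell on genes. This share was 20.2% to 29.5% in the ZT1 libraries and 35.0% to 81.6% in the ZT19 libraries. Markers of the sorted cells were present: Lyve1, a hyaluronan receptor of lymphatic vessels, averaged 5687 normalized counts per kb of exon, and Prox1, the master regulator of lymphatic identity, 322.1 per kb. A normalized count here is the raw count divided by the TMM-scaled size of its library, with sizes expressed against their geometric mean. None of 8 LEC markers passed the test among the 4 time points.

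Keratin transcripts were abundant for cells sorted as endothelium. Per kb of exon, Krt14 averaged 15976 normalized counts over the 20 libraries, Krt15 9959 and Krt5 6362, against 3773 for Vim. Next came suprabasal Krt2 with 2697 per kb and Krt10 with 1666 per kb, then Krt79, a keratin of the hair follicle opening and the sebaceous duct, with 447 per kb, and Krt17, which marks the outer root sheath and injured epidermis, with 150 per kb. The other 40 members with a known length each averaged below 100 normalized counts per kb. Without ZT7 replicate 2, a library left out after the values were seen, Krt2 averaged 1496 per kb and Krt10 879 per kb. The order among the basal genes and Vim also changed with the time point. At ZT13 Krt14 averaged 4123 per kb, Krt15 2067 and Krt5 1500, the latter pair below the mean of Vim over all libraries. At ZT1 Krt14 averaged 11220 per kb, Krt5 5283 and Krt15 3773. By share of all normalized keratin counts, the 3 basal genes made up 80.6%, the 6 suprabasal genes 14.6% (9% without ZT7 replicate 2) and the 5 genes of activated or appendage epidermis 3.53%. The remaining roles each held less than 1%: 0.402% for the 8 inner root sheath keratins, 0.356% for the 13 hair shaft keratins, 0.254% for the 5 of mucosa and cornea, 0.225% for the 6 of simple epithelium and Merkel cells and 0.047% for the 2 without an assigned role.

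**Figure D1:**
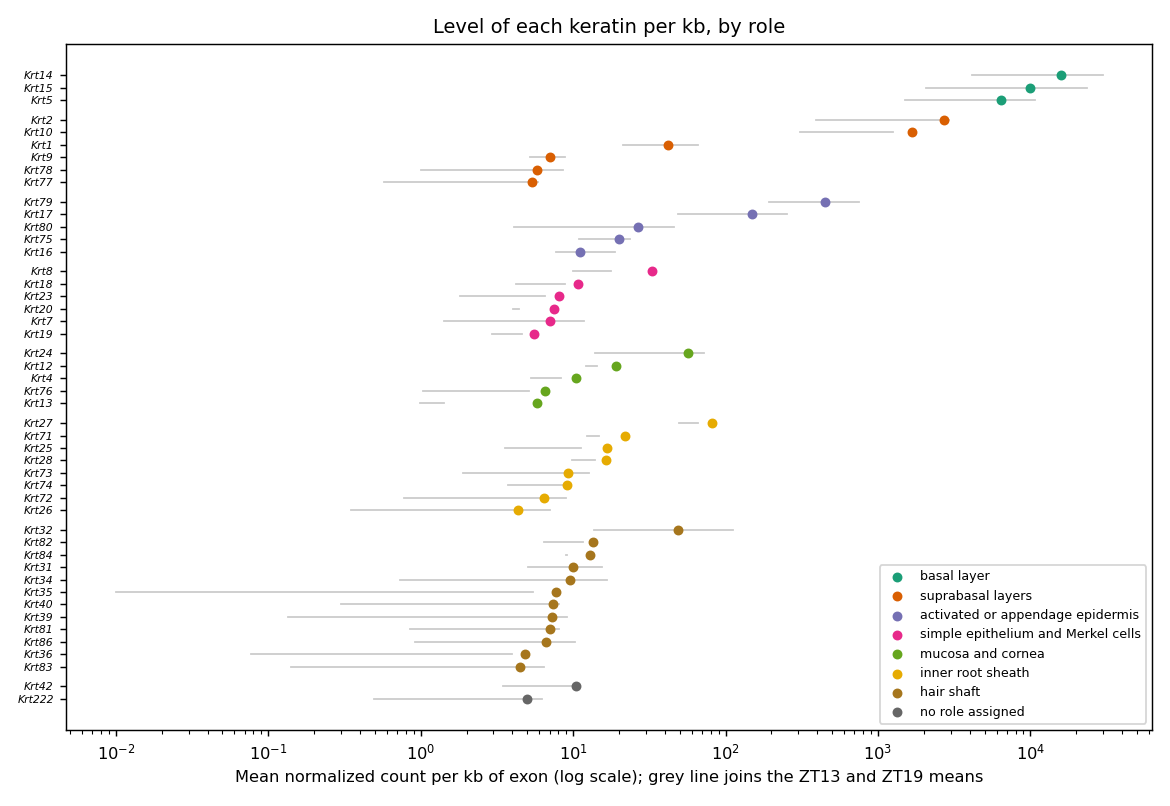
Mean normalized count per kb of exon over the 20 libraries (points, log scale) for the 47 keratins with a gene model, grouped and coloured by role, with a grey line joining the ZT13 and ZT19 means. The basal genes stand highest and 40 genes lie below 100 per kb; the ZT19 mean of Krt35 is 0 and is drawn at 0.01.

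Summed over the 48 genes, keratins took the smallest share of the gene counts at ZT13 and the largest median share at ZT19. The median share was 0.333% at ZT1 (0.290% to 0.485%), 0.776% at ZT7 (0.691% to 2.21%), 0.186% at ZT13 (0.0665% to 0.315%) and 1.38% at ZT19 (0.870% to 1.51%). Each ZT19 library lay above each ZT1 and each ZT13 library, and each ZT7 library lay above these as well, but with reads on no gene added to the denominator the ZT7 range (0.0877% to 1.38%) overlapped that of ZT1 (0.0587% to 0.124%). ZT7 replicate 2 stood apart from the other ZT7 libraries, which ended at 0.814%. As a sum over the members these shares are given without a test.

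The non-keratin genes of keratinocytes were also lowest at ZT13. Of 12 such markers, which include Sfn, the desmosomal membrane protein Perp and the hemidesmosomal collagen Col17a1, all 12 had their lowest mean at ZT13. Of all genes tested 20% did. Their summed normalized count ran from 17220 to 29810 at ZT1, 27560 to 63090 at ZT7, 7873 to 17950 at ZT13 and 30000 to 69860 at ZT19, so that the ZT13 and ZT19 libraries did not overlap. Of the 12, Col17a1, Ly6d, Perp and Sfn passed the test among the 4 time points, which called 0.422% of all genes. By the test between ZT13 and ZT19, which called 0.588% of all genes, 6 were higher at ZT19. Itgb4 hardly differed there, at 0.07 (log2, edgeR adjusted p = 0.925). In bulk libraries, fewer cells of a type and less RNA per cell cannot be told apart. The part of keratinocyte RNA in the keratin differences was not tested.

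**Figure D2:**
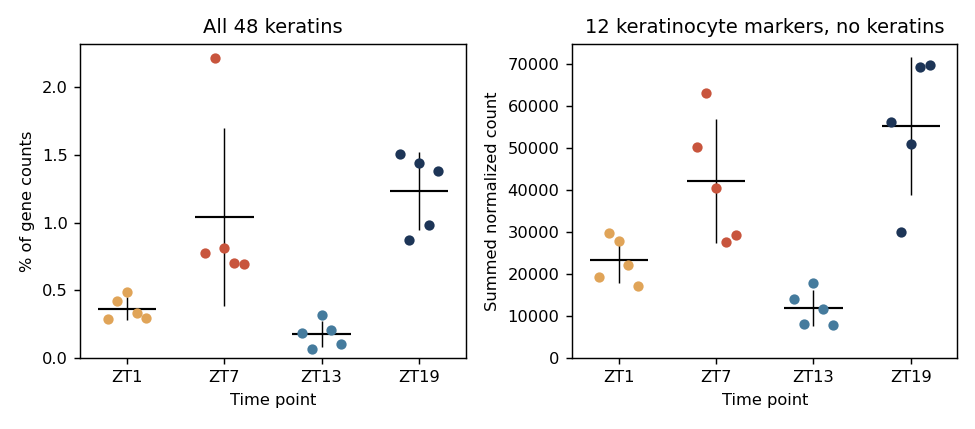
Left, the share of gene counts that fell on the 48 keratins, in percent; right, the summed normalized count of 12 keratinocyte markers without keratins. Points are libraries (5 per time point), bars the mean and vertical lines 1 SD; both panels are lowest at ZT13, where the keratin share was 0.0665% to 0.315%.

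The main test asked which keratins differed among the 4 time points. Krt5, Krt14, Krt15 and Krt79 did, and no other member did. A gene was called where the quasi-likelihood F-test of edgeR gave an adjusted p (Benjamini-Hochberg) under 0.05 over all 19209 genes with enough counts. These included 46 of the 48 keratins, as Krt36 and Krt85 were too low. In all, 81 genes were called, which is 0.422% of those tested. At an unadjusted p under 0.05 the count of keratins was 10 of 46 (21.7%), against 15.7% of all genes. The called genes are keratins of the basal layer or the follicle opening, and all 4 belong to the 7 members above 100 normalized counts per kb.

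Krt14, the basal type I keratin, had 10695, 30238, 22524, 16097 and 19070 normalized counts in the 5 ZT1 libraries, and 42064, 56683, 25238, 22479 and 17130 at ZT7. It then stood at 7342, 2936, 11272, 10308 and 4387 at ZT13, and at 39291, 36654, 61868, 52602 and 72834 at ZT19. The lowest ZT19 library exceeded every ZT1 and ZT13 library, while the ZT7 range overlapped those of ZT1 and ZT19. From ZT13 to ZT19 Krt14 rose by 2.86 ± 0.49 (log2, SE, edgeR adjusted p = 0.00368). Over all time points its edgeR adjusted p was 0.0170, and 0.0510 without ZT19 replicate 5. With the replicate number as a block in the fit it was 0.0723.

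Krt5, the type II partner of Krt14, followed the same order of time points. Its normalized counts were 8079, 14858, 14876, 10737 and 9480 at ZT1, 18219, 27698, 18292, 10008 and 13217 at ZT7, 5640, 1456, 4681, 3444 and 1261 at ZT13, and 14121, 15842, 38677, 26896 and 22075 at ZT19. Every ZT13 library lay below every library of the other time points. Krt5 was lower at ZT13 than at ZT7 by 2.41 ± 0.46 (log2, SE, edgeR adjusted p = 0.0296) and higher at ZT19 than at ZT13 by 2.83 ± 0.47 (adjusted p = 0.00308). Among the 4 time points its adjusted p was 0.0140 (edgeR), and 0.0620 without ZT13 replicate 4. The ZT7 to ZT13 call was also lost without ZT13 replicate 2, 4 or 5 or ZT7 replicate 2 or 3, with adjusted p from 0.0654 to 0.117, and in a fit of these time points alone, with 0.127. With the replicate number as a block the adjusted p of this call was 0.0530.

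Krt15, a type I keratin of basal cells and of the hair follicle bulge, showed the smallest adjusted p of the family, 0.0002 among the 4 time points (edgeR). It had 5158, 8962, 7325, 4198 and 7689 normalized counts at ZT1 and 25960, 23562, 17630, 10899 and 15318 at ZT7. At ZT13 its values were 3444, 3087, 4473, 4388 and 2875, and at ZT19 they were 64071, 24196, 25760, 39685 and 53288. The ZT1 and ZT7 ranges did not overlap, nor did ZT7 and ZT13 or ZT13 and ZT19. Krt15 was lower at ZT13 than at ZT7 by 2.35 ± 0.41 (log2, SE, edgeR adjusted p = 0.0202), higher at ZT19 than at ZT13 by 3.50 ± 0.43 (adjusted p = 0.000184) and higher at ZT19 than at ZT1 by 2.63 ± 0.42 (adjusted p = 0.0161). The ZT13 to ZT19 call held without each of the 20 libraries in turn, with log2 differences of 3.29 to 3.67. The ZT1 to ZT19 call was lost without any ZT1 library or without ZT19 replicate 1, with adjusted p from 0.0565 to 0.0983, and with the on-gene share of reads as covariate, with 0.297. With the replicate number as a block its adjusted p was 0.0647. The ZT7 to ZT13 call was lost without ZT7 replicate 2 or ZT13 replicate 2, 4 or 5, with adjusted p from 0.0551 to 0.0747, and in a fit of these time points alone, with 0.0521.

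Krt79, a type II keratin, had another order of time points, with high values at both ZT1 and ZT19. Its normalized counts were 1933, 2600, 3069, 3493 and 2565 at ZT1, 976, 2535, 1195, 945 and 747 at ZT7, 968, 587, 1507, 818 and 722 at ZT13, and 1496, 3328, 3094, 3998 and 5931 at ZT19. The ZT1 and ZT13 libraries did not overlap, and ZT19 replicate 1 fell just under the highest ZT13 library. From ZT13 to ZT19 Krt79 rose by 1.96 ± 0.39 (log2, SE, edgeR adjusted p = 0.0126), and leaving out each library in turn gave 1.70 to 2.21. The call was lost in a fit of these time points alone (adjusted p = 0.0579) and with the on-gene share of reads as covariate (0.0539). In the test over all time points its adjusted p was 0.0236 (edgeR) and lay between 0.0509 and 0.0802 without ZT7 replicate 3, ZT13 replicate 2 or 4, or ZT19 replicate 5. With the replicate number as a block it was 0.0857. In a test of a 24 h rhythm its unadjusted p was 4.82e-05 and its edgeR adjusted p 0.0859, the smallest adjusted p of a keratin in that test. The sebocyte markers, chosen as another lineage near the follicle opening, summed to 9909 to 12130 normalized counts at ZT1, 2560 to 10780 at ZT7, 3307 to 10570 at ZT13 and 9688 to 17050 at ZT19, most of it from the lipid desaturase Scd1, and Awat1, a sebaceous wax ester synthase, was at 0 in 11 libraries. Their part in the Krt79 values was not tested.

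**Figure D3:**
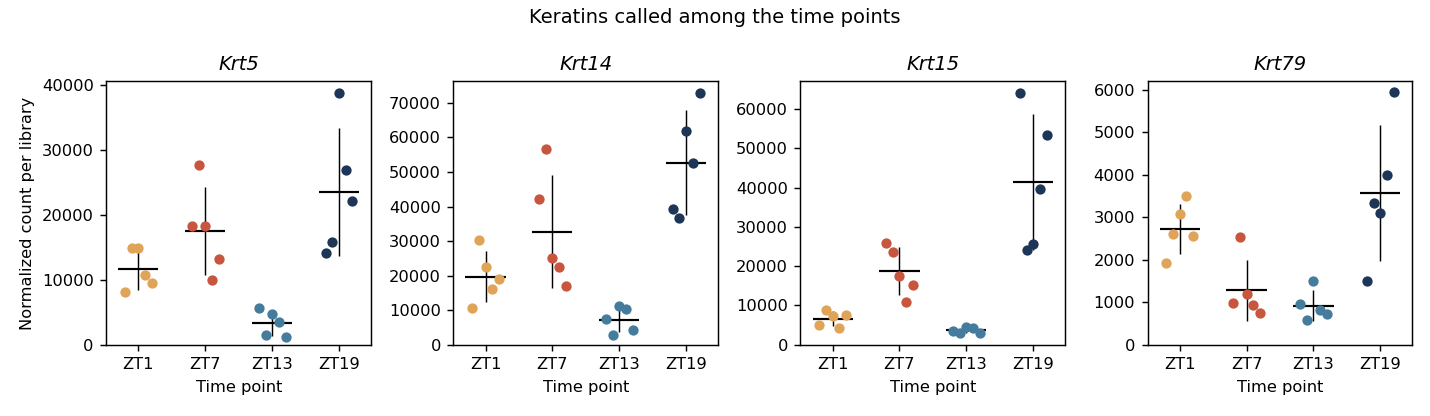
Normalized count per library of Krt5, Krt14, Krt15 and Krt79 at the 4 time points. Points are libraries (5 per time point), bars the mean and vertical lines 1 SD; the 3 basal genes are lowest at ZT13 (Krt15 2875 to 4473) and highest in mean at ZT19 (Krt15 24196 to 64071), and Krt79 is also high at ZT1.

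By pairs of time points, the ZT13 to ZT19 comparison held the most keratin calls. There the 4 genes above were called, in a test that called 0.588% of all genes, and each of the 4 was higher at ZT19. Between ZT7 and ZT13, Krt5 and Krt15 were lower at ZT13, against 0.0781% of all genes. Between ZT1 and ZT19, Krt15 was higher at ZT19, against 0.0156% of all genes. No keratin was called between ZT1 and ZT7, ZT1 and ZT13 or ZT7 and ZT19, or for a 24 h rhythm, where edgeR called 0.00521%, 0.0208%, 0.0156% and 0.0312% of all genes. At an unadjusted p under 0.05 these tests held 5, 4, 8 and 3 of the 46 members (10.9%, 8.70%, 17.4% and 6.52%), against 4.97%, 5.37%, 19.7% and 9.23% of all genes. DESeq2, run as an alternative, called more genes of every kind: 7 keratins over all time points, against 3.77% of all genes it tested, and 9 between ZT13 and ZT19, against 9.68%. Its counts of keratins were 1 between ZT1 and ZT7 (0.0854% of all genes), 3 between ZT1 and ZT13 (0.790%), 5 between ZT1 and ZT19 (10.8%), 4 between ZT7 and ZT13 (0.639%), 6 between ZT7 and ZT19 (12.2%) and 1, Krt79, for the rhythm (0.791%).

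Genes were also counted whose 5 libraries at one time point all lay on the same side of the 5 at another. Krt5, Krt7, Krt14, Krt15 and Krt80 were higher at ZT19 than at ZT13 without overlap, as were 1.87% of all genes tested. Krt5, Krt14 and Krt15 were lower at ZT13 than at ZT7, against 0.750% of all genes, and Krt5 and Krt79 were lower at ZT13 than at ZT1, against 0.984%. Between ZT1 and ZT19, Krt14, Krt15 and Krt32 were higher at ZT19 (background 2.38%), whereas Krt26, Krt34, Krt35, Krt39 and Krt40 were lower (background 6.17%). Krt15 alone was higher at ZT7 than at ZT1 without overlap, against 0.578% of all genes.

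The ratio of 1 keratin to another within a library needs no scaling between libraries, although where a gene has no count the 1 added to it lets depth set the ratio. The log2 ratio of Krt5 to Krt14, the basal pair, was -0.72 ± 0.28 (SD, n = 5) in the ZT1 libraries and -0.85 ± 0.40 in the ZT7 libraries, and then -1.21 ± 0.55 in those of ZT13 and -1.21 ± 0.41 in those of ZT19. ZT13 and ZT19, between which both genes changed most, differed in this ratio by -0.0031 (two-sided exact permutation test, p = 1). Within a time point the SD of this ratio was 0.42, against 0.54 for Krt15 to Krt14 and 1.63 for Krt10 to Krt14, the smallest of the 5 ratios tested.

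None of the 30 tests (5 ratios over 6 pairs of time points) had an adjusted p under 0.05, and the lowest was 0.119. The log2 ratio of Krt15 to Krt14 was -1.54 ± 0.35 (SD, n = 5) at ZT1 and -0.74 ± 0.43 at ZT7, then -0.84 ± 0.58 at ZT13 and -0.40 ± 0.71 at ZT19. The differences of ZT7 and ZT19 from ZT1 were 0.80 and 1.13 (exact permutation p = 0.0159 each, adjusted p = 0.119). The ratio of Krt10 to Krt14, a suprabasal over a basal keratin, was -2.55 ± 1.11 at ZT7 and -4.84 ± 1.56 at ZT19, with no overlap of the libraries. That difference of -2.29 had an exact permutation p of 0.00794, the smallest that 5 against 5 libraries allow, and an adjusted p of 0.119. Krt8 to Krt14 was -7.81 ± 0.40 at ZT1 and -12.2 ± 3.1 at ZT19, again without overlap and with the same exact p and adjusted p, where ZT19 replicate 1 had no Krt8 count and a ratio of -17.2. Without that library the ZT19 mean was -10.9 ± 1.37 (SD, n = 4). Krt17 to Krt14 varied widely, with an SD within time points of 2.34 and adjusted p of 0.493 or more in its 6 exact tests.

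Krt79 relative to Krt14, a ratio chosen after its values were seen and given without a test, was -2.80 ± 0.51 (SD, n = 5) at ZT1 and -4.68 ± 0.42 at ZT7, then -2.88 ± 0.50 at ZT13 and -3.97 ± 0.53 at ZT19. The highest ZT7 library, at -4.40, lay below the lowest ZT1 library (-3.54) and the lowest ZT13 library (-3.65). Relative to the summed 12 non-keratin keratinocyte markers, a scale also chosen afterwards, Krt79 had 8.72% to 15.8% of that sum at ZT1, 1.94% to 4.02% at ZT7, 6.96% to 9.17% at ZT13 and 2.66% to 11.1% at ZT19. On the same scale Krt14 overlapped between ZT13 (36.8% to 88.0%) and ZT19 (70.0% to 122%). Krt5 likewise overlapped, with 16% to 40.6% at ZT13 and 25.2% to 75.9% at ZT19. Krt15 did not overlap between these time points, with 24.8% to 38.7% at ZT13 and 50.6% to 114% at ZT19. Ly6d and Perp were the largest parts of the marker sum, with means of 9709 and 8045 normalized counts. Relative to Krt14, Krt15 did overlap between ZT13 and ZT19, with a difference of 0.44 (exact permutation p = 0.31, adjusted p = 0.546). The share of all genes without overlap on the marker scale was not computed.

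**Figure D4:**
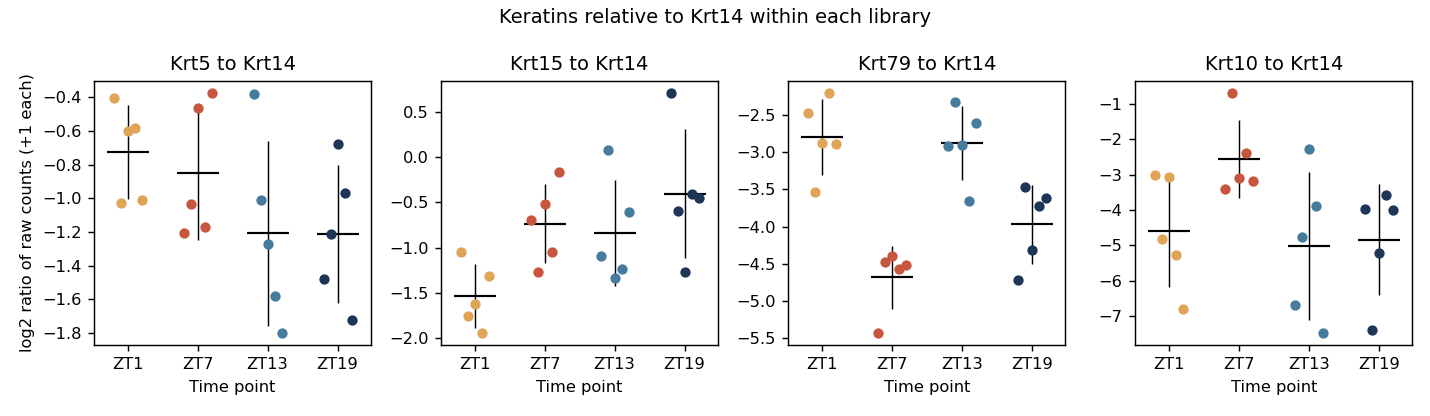
Log2 ratio of raw counts (1 added to each) of Krt5, Krt15, Krt79 and Krt10 to Krt14 within each library. Points are libraries (5 per time point), bars the mean and vertical lines 1 SD; Krt79 to Krt14 is lowest at ZT7 (mean -4.68) and Krt10 to Krt14 highest there (mean -2.55). The panels have separate vertical axes.

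The suprabasal keratins spanned far wider ranges than the basal ones. Krt2, the type II keratin of the upper epidermal layers, had 2043, 2085, 2985, 631 and 441 normalized counts at ZT1, 3752, 66672, 9129, 7187 and 2570 at ZT7, 152, 5, 3715, 1224 and 3 at ZT13, and 15594, 972, 8076, 5524 and 8163 at ZT19. ZT7 replicate 2 held the highest value of all, and ZT13 replicates 2 and 5 held nearly none. Its edgeR adjusted p among the 4 time points was 0.163, and 0.0483 without ZT13 replicate 3, and its ZT13 to ZT19 difference was 2.91 ± 1.16 (log2, SE, adjusted p = 0.164).

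Krt10, the type I partner in these layers, had 1321, 1075, 2675, 415 and 170 normalized counts at ZT1, 3945, 35138, 2930, 4328 and 1901 at ZT7, 69, 106, 2350, 690 and 24 at ZT13, and 2486, 215, 1652, 4381 and 4566 at ZT19. The same libraries stood out as for Krt2, with ZT7 replicate 2 at the top and ZT13 replicate 5 at the bottom. Over all time points the adjusted p of Krt10 was 0.116 in edgeR, 0.0428 in DESeq2 and 0.0175 in edgeR without ZT13 replicate 3. In ZT7 replicate 2 suprabasal keratins made up 47.7% of the keratin counts, against a median of 16.2% at ZT7 and of 2.38% at ZT13. Krt1, the type II keratin that usually pairs with Krt10, averaged 41.8 normalized counts per kb, against the 2697 per kb of Krt2. In the edgeR fit of all 20 libraries none of the 6 suprabasal genes was called. The highest mean lay at ZT7 for 5 of the 6, against 29 of all 46 members and 27.7% of all genes tested. Without ZT7 replicate 2 it did so for 4 of the 6, as Krt2 was then highest at ZT19, against 30 of the 46 members and 32.3% of all genes.

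**Figure D5:**
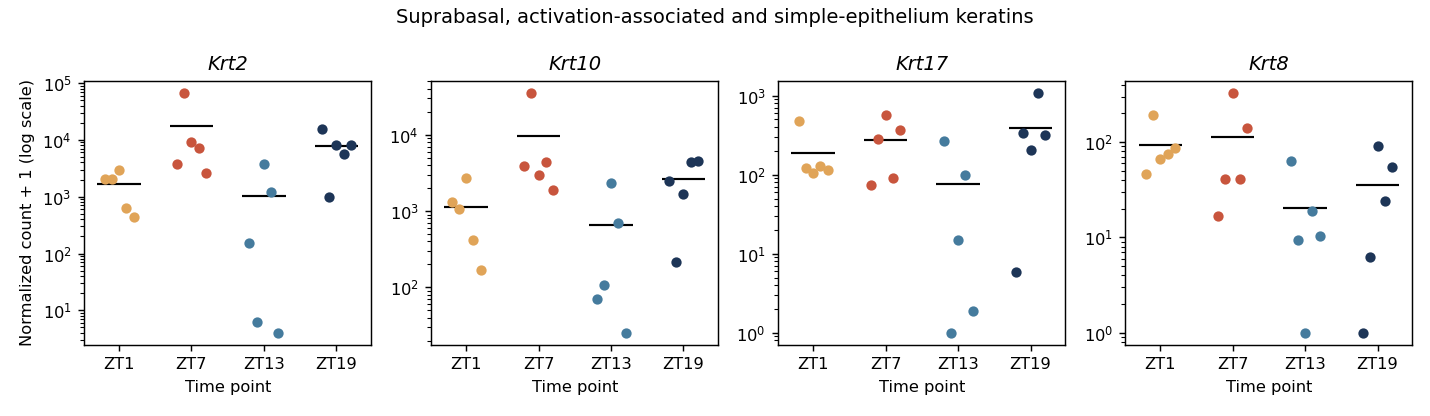
Normalized count plus 1 per library (log scale) of Krt2, Krt10, Krt17 and Krt8 at the 4 time points. Points are libraries (5 per time point) and bars the mean; Krt2 ran from 3 to 66672 normalized counts, with ZT7 replicate 2 highest and ZT13 replicates 2 and 5 lowest.

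To show the sequences next to these expression patterns, the 250 bases before the start site are given for called Krt5 and Krt79 and for suprabasal Krt2 and Krt10, from RefSeq on GRCm38.p6, all minus-strand genes written 5′ to 3′. They lie at chr15:101712906-101713155 for Krt5, chr15:101940325-101940574 for Krt79, chr15:101818170-101818419 for Krt2 and chr11:99389365-99389614 for Krt10. Capitals mark the TATA box letters TATAAA, found by search on both strands.
Krt5: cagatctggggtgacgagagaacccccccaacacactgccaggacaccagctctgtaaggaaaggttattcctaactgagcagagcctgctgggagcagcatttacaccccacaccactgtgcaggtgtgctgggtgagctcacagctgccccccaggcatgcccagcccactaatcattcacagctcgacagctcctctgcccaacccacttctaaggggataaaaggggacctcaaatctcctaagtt
Krt79: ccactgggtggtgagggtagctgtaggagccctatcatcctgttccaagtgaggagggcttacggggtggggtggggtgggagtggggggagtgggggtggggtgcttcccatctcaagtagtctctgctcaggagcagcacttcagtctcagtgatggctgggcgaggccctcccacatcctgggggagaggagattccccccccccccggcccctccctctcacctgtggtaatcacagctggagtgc
Krt2: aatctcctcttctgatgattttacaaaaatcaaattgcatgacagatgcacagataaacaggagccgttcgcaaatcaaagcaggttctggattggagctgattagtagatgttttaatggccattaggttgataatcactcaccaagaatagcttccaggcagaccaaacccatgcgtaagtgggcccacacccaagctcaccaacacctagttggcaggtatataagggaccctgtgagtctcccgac
Krt10: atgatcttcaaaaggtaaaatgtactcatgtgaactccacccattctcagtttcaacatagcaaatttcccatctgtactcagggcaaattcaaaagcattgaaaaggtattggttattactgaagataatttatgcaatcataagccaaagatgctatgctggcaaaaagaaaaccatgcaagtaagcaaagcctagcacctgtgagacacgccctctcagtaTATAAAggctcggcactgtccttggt

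Only the window of Krt10 among these 4 held the letters TATAAA, with the first base 26 bases before the start site. Over the family, 34 members had a window in the table (35 windows, as Krt13 had a pair of entries), and 16 of the 35 windows (45.7%) held TATAAA on either strand, against 12.4% of the 32851 windows of all genes. CACGTG, the E-box that clock proteins bind, was in 3 windows (8.57%), those of Krt23, Krt75 and Krt78, against 6.02% of all windows. The AP-2 letters GCCNNNGGC were in 4 windows (11.4%), against 13.7% of all, and the AP-1 letters TGANTCA in 2 windows (5.71%), both of Krt13, against 6.75%. Such matches describe the letters in these windows only, and none of the windows of Krt5, Krt79, Krt2 or Krt10 held the latter 3 motifs.

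Of the activation and appendage genes other than Krt79, Krt17 had 481, 121, 105, 127 and 115 normalized counts at ZT1, 73, 281, 569, 91 and 369 at ZT7, 263, 0, 14, 98 and 1 at ZT13, and 5, 340, 205, 1080 and 319 at ZT19. ZT13 replicates 2 and 5 and ZT19 replicate 1 held nearly no Krt17 although they held 2936, 4387 and 39291 normalized counts of Krt14. The ZT13 to ZT19 difference was 2.38 ± 1.09 (log2, SE, edgeR adjusted p = 0.227). All 7 members above 100 normalized counts per kb had a positive fitted difference from ZT13 to ZT19, from 1.96 to 3.50 (log2). The median of all genes was -0.22. Of the 7, 4 passed the test, and every scaling, filter and covariate tried kept all 7 positive. The cut was made after the values were seen, on means that include the ZT19 libraries. The shared sign of the 7 is therefore a description and no test.

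The keratins of simple epithelium and Merkel cells were low. Krt8 averaged 33.0 normalized counts per kb, and ran from 45 to 190 normalized counts at ZT1, 16 to 326 at ZT7, 0 to 62 at ZT13 and 0 to 90 at ZT19. Its partner Krt18 averaged 10.7 per kb and had no count in 7 of the 20 libraries. Their edgeR adjusted p among the 4 time points were 0.525 and 0.903. Krt8 shared 16.9% of its transcript windows with a pseudogene copy. None of the 5 Merkel cell markers passed the test either.

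The cornea, mucosa and hair keratins were likewise low, and none was called in the edgeR fit of all libraries. Krt24 and Krt12, the highest of the mucosa and cornea group per kb, averaged 56.5 and 19.02 normalized counts per kb, with adjusted p of 0.487 and 0.904 (edgeR). Krt27 and Krt71, type I and type II keratins of the inner root sheath, averaged 81.4 and 21.8 per kb, with adjusted p of 0.605 and 0.916. Krt32 and Krt82, keratins of the hair cuticle, averaged 48.8 and 13.5 per kb, with adjusted p of 0.297 and 0.898. Krt32 had 1 to 29 normalized counts at ZT1 and 39 to 443 at ZT19, without overlap. Krt42 and Krt222, to which no role was assigned, averaged 10.5 and 4.96 per kb, with adjusted p of 0.792 and 0.609.

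The sign of the low keratins between ZT13 and ZT19 depended on the settings. Of the 39 tested members at or below 100 normalized counts per kb, a division made after the values were seen, 27 had a lower fitted level at ZT19, with a median log2 difference of -0.83 against -0.22 for all genes tested, whereas with the on-gene share of reads as a covariate 7 did, with a median of 2.01 against 0.22 for all genes. A stricter filter (minimum count 50) kept 8 of these members, of which 0 were lower (median 1.86). A fit of these time points alone kept 17, of which 8 were lower (median 0.16). Each filter keeps a low gene only where enough libraries are high, which can favour genes high at 1 time point. The counts after such filters therefore do not decide the sign. In the main fit, where the median of all genes was -0.22, 9 of 11 tested hair shaft keratins were lower at ZT19, from -7.09 to 3.06. Of 8 inner root sheath keratins 6 were lower, and none of these passed the edgeR test. These roles were not counted under the other settings. Krt35, a hair shaft keratin, had no count in any ZT19 library, which allows at most 2.78e-05% of the gene counts in the shallowest of them (3 counts), and a mean of 39.3 normalized counts at ZT7. It also had no count in ZT7 replicates 1 and 2 and in ZT13 replicates 2 and 5. Over the 46 tested members, 29 had the highest mean at ZT7 and 25 the lowest at ZT19, where 27.7% and 46.0% of all genes did.

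The number of keratins with at least 1 count, like that of all genes, moved with the share of reads on genes. In the 11 libraries with under 30% of reads on genes, 42 to 48 members had a count. In the 4 libraries between, 21 to 40 had one, and in the 5 libraries with over 60% of reads on genes 12 to 26 did, although these were the 5 deepest in gene counts. Over all symbols, 19055 to 21697 genes had a count in the first set, 15485 to 18768 in the second and 12477 to 16253 in the third. The fewest, 12 members, were found in ZT13 replicate 5, with 79.9% of reads on genes and 42002363 gene counts, and the next fewest, 16, in ZT19 replicate 1 with 81.6%. With this share as a covariate, Krt5 and Krt15 were called among the 4 time points, in a fit that called 0.255% of all genes, and Krt14 and Krt79 had an adjusted p just above the threshold (Krt79 0.0513, edgeR).

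Some genes that work with keratins passed the same tests, which called 0.422% of all genes among the 4 time points and 0.588% between ZT13 and ZT19. Of 12 desmosome genes, Dsg1a and Perp passed the test among the 4 time points. Between ZT13 and ZT19, 4 were higher at ZT19, with Dsg1a, a desmosomal cadherin, at 3.91 (log2, edgeR adjusted p = 0.00452). Dsc1 and Pkp2 stood at -2.76 and -1.18 and the rest of the list was positive. Of 6 hemidesmosome genes, Col17a1 passed, with a ZT13 to ZT19 difference of 2.79 (adjusted p = 0.00368), and the list's median was 0.10. Of 9 cornified envelope and bundling genes tested, Sfn passed, with 3.54 (adjusted p = 0.000209), the list's median was 0.04 and Tgm1, a transglutaminase, stood at -6.36 (adjusted p = 0.0911). Of 10 regulators of epidermal genes Klf5 passed, with 2.79 (adjusted p = 0.0148). None of 14 other intermediate filament genes passed, and Vim differed between ZT13 and ZT19 by 0.02 (adjusted p = 0.983).

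Of the marker lists for other cells of the ear, 1 of 5 sebocyte markers (Elovl3) and 1 of 2 Langerhans cell markers (Epcam, which other epithelial cells also express) passed among the 4 time points. From ZT13 to ZT19 these rose by 2.99 and 2.60 (log2, edgeR adjusted p = 0.0160 and 0.00646), whereas Cd207, the defining Langerhans cell marker, stood at -3.72 (adjusted p = 0.297). None of 8 hair follicle markers passed among the 4 time points, and Gata3 and Sox9 were higher at ZT19 than at ZT13. Gata3 is also on the list of epidermal regulators. The summed markers, mostly Gata3, Sox9 and Lgr6, spanned 561 to 1729 normalized counts at ZT13 and 2418 to 3725 at ZT19. Lgr5, Lhx2 and Tchh stood at -0.11, -0.54 and -0.06 (log2) from ZT13 to ZT19, and the rest were positive. No marker of melanocytes, fibroblasts, blood endothelium, leukocytes, skeletal muscle or cartilage passed.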

How the data were processed

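RNA-seq libraries (SMART-Seq v4 and Nextera XT) of sorted ear-skin LECs were sequenced by the authors. The deposited values are raw counts per gene symbol, with STAR, HTSeq (listed as 1.0.0) and mm10 named in the submitters' processing notes. Rows that name no gene stayed out of library sizes and tests; reads on no feature held a median of 26.4% of all reads listed. The strand setting and annotation are not given in the sources used here. Replicates are separate pools, and p-values measure the spread between pools.

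Counts were fitted in edgeR 4.0.16 (R 4.3.3) with TMM scaling, filterByExpr by time point and the quasi-likelihood F-test, all 20 libraries sharing 1 estimate of spread, and p adjusted over 19209 genes. The test was run on simulated counts beforehand. Ratios used exact permutation tests, with 1 added to each count. Alternatives were other scalings, other filters, DESeq2 1.42.0, the replicate number as a block, the on-gene share of reads as covariate, fits of 2 time points alone and each library left out. Named were all members called in any test, the 2 highest per kb in each role and the genes of the ratios; Krt1, Krt7, Krt35, Krt80, further ratios and the scaling to keratinocyte markers were chosen after values were seen. Exon lengths came from GENCODE M21. The keratins, gene lists and roles were chosen with earlier results of these data known. Counting limits cover counting error only.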

Additional observations from a re-analysis of the deposited data

Results flagged for a closer look

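Among 112 groups of 5 libraries, 11 held a library whose distance from the nearest other exceeded Dixon's 95% critical value of 0.71 as a fraction of the group's range, where chance gives about 1 in 20 groups, or 5.6. At ZT7, replicate 2 was high in the keratin share of gene counts (2.21%, others 0.691% to 0.814%, fraction 0.919) and in Krt10 (log2 normalized count 15.1, others 10.9 to 12.1, fraction 0.718). ZT7 replicate 1 was low in Krt222 (fraction 0.774), in Krt79 relative to Krt14 (-5.43, fraction 0.832) and in Krt80 relative to Krt14 (-10.8, fraction 0.726). At ZT1, replicate 1 was high in Krt17 (fraction 0.877), in Krt17 relative to Krt14 (fraction 0.719) and in Krt18 (fraction 0.919), and replicate 5 was high in Krt12 (fraction 0.795). At ZT19, replicate 1 was low in Krt27 with no count (fraction 0.737), and replicate 3 was high in Krt42 (fraction 0.711).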

How the results depend on the processing

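With DESeq2 the keratins called were 7 among the 4 time points, 1 between ZT1 and ZT7, 3 between ZT1 and ZT13, 5 between ZT1 and ZT19, 4 between ZT7 and ZT13, 6 between ZT7 and ZT19, 9 between ZT13 and ZT19 and 1 for the rhythm, the cause not tested; DESeq2 called 3.77% of all its tested genes among the time points and 9.68% between ZT13 and ZT19. Whether the replicate numbers pair the libraries was not settled. Of 30 same-number correlations 12 were over 0.1 (range -0.529 to 0.331), and libraries of differing numbers were not correlated. With the replicate block 2 keratins were called among the 4 time points (0.161% of all genes). Between ZT1 and ZT19 the block called 0 (0 genes), and between ZT7 and ZT13 it called 1 (0.0625%). The adjusted p under the block was 0.0723 for Krt14 and 0.0857 for Krt79 among the 4 time points, 0.0647 for Krt15 between ZT1 and ZT19 and 0.0530 for Krt5 between ZT7 and ZT13. With the on-gene share of reads as covariate the counts were 2 among the 4 time points (0.255%) and 0 between ZT1 and ZT19 (0 genes), and with only the libraries compared 0 between ZT7 and ZT13 (0.0289%), where fewer libraries entered. Leaving out 1 library gave 2 to 6 calls among the 4 time points (0.153% to 0.899% of all genes), 4 to 6 between ZT13 and ZT19 (0.318% to 4.30%), 0 to 4 between ZT7 and ZT13 (0.0101% to 0.181%), 0 to 1 between ZT1 and ZT19 (0% to 4.55%) and 0 to 1 for the rhythm (0% to 0.0505%). With reads on no gene in the denominator the median keratin shares were 0.0782% at ZT1 and 0.126% at ZT7, then 0.0468% at ZT13 and 0.773% at ZT19. Between ZT13 and ZT19 the uncalled log2 differences turned sign with the covariate for Krt12 (1.61), Krt18 (3.23), Krt42 (1.17) and Krt82 (2.80), with the block for Krt27 (-0.0161) and for Krt71 with DESeq2 (-0.0465), DESeq2 size factors (-0.0430) and no TMM (-0.0593). Leaving out 1 library also turned signs, with ranges of -0.661 to 0.380 for Krt12, -0.130 to 0.734 for Krt27, -0.384 to 1.5 for Krt71, and for ratios to Krt14 of -0.151 to 0.204 for Krt5, -0.432 to 0.872 for Krt10 and -0.164 to 1.77 for Krt17. The median of all genes between ZT13 and ZT19 was -0.22 with TMM, -0.39 with DESeq2 size factors and -0.29 with library size alone. Exact permutation tests of 5 against 5 libraries cannot fall below 0.00794, and the low keratins, near 0 in many libraries, allow no firm order.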
